A study of Mus musculus with 12 samples.

Results

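Retained-intron and protein-coding transcripts were followed for 10 genes of the splicing machinery, out of 55266 genes with an annotated transcript in the tables: the SR proteins Srsf2, Srsf3, Srsf5, Srsf6, Srsf7 and Srsf11, the SR-related proteins Tra2a and Tra2b, and the kinases Clk1 and Clk4. The genes were chosen by name. For each, counts of transcripts typed retained_intron in GENCODE release M21 were set against counts of its transcripts typed protein_coding.

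The libraries came from E14 mouse embryonic stem cells that all carried 2C::3xtbGFP, a fluorescent reporter of the 2-cell-like state, a rare state with transcripts of the 2-cell embryo. Cells were plated without the kinase inhibitors of their maintenance medium and collected after 48 h of culture, with sorbitol, an osmotic stressor, present for 0, 6 or 24 h. They were then sorted into tbGFP-negative and tbGFP-positive cells, which gave 6 groups of 2 libraries of total RNA. All cells came from 1 line, the sorbitol dose is not in the labels, and every library at 6 h or 24 h had sorbitol, so that sorbitol and time in it cannot be told apart. The labels number the libraries 1 and 2 in each group without saying what the numbers mark, so the p-values below measure only the spread between these libraries, which may be technical.

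SR proteins bind exonic enhancers through RNA recognition motifs and recruit splicing factors through domains rich in arginine and serine, which CLK kinases phosphorylate. The genes of both families are known to limit their own output through alternatively spliced or unspliced transcripts that are degraded by nonsense-mediated decay or held in the nucleus. Introns held in otherwise finished nuclear RNA, known as detained introns, were described for Clk1, Clk4 and several SR protein genes in embryonic stem cells, and some of them are known to be spliced out after stress.

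Some introns that a retained-intron transcript of Srsf2, Srsf6, Srsf3, Tra2a, Tra2b or Clk4 holds whole are shown by both ends. The 5′ end has 3 exon bases and the start of the intron, and the 3′ end has the close of the intron and 3 exon bases. Capitals mark the first 6 and the last 2 intron bases. Each was read 5′ to 3′ on the gene's strand from GENCODE M21 transcript sequences, whose build, GRCm38, is that of the files. They are shown because a read from the part of them that no other annotated transcript covers is counted to a retained-intron transcript. That part was 768 of the 2150 bases of Srsf3 intron 3 and 713 of the 1055 bases of Clk4 intron 3. For Srsf3, Tra2a and Clk1, most reads of this type came from stretches of intron that are not shown. Srsf3 intron 4 and Clk4 introns 4 and 8 are also held whole and are not shown. Of the 2210 own bases of Clk4-213, 713 lie in Clk4 intron 3.
Srsf2 intron 2, 5′ end: atgGTAATGtctgcg
Srsf2 intron 2, 3′ end: ctttcttttcaaacctAGatg
Srsf6 intron 2, 5′ end: gcaGTGAGTccttac
Srsf6 intron 2, 3′ end: tcccttcatgtgataaAGgtg
Srsf3 intron 3, 5′ end: cagGTACTTgagaga
Srsf3 intron 3, 3′ end: tactgtttctgcttctAGatc
Tra2a intron 5, 5′ end: tcaGTAAGAttgggt
Tra2a intron 5, 3′ end: cccttcatttttctgtAGcag
Tra2b intron 5, 5′ end: ttaGTAAGTaacttc
Tra2b intron 5, 3′ end: gaatgttgtcgcttacAGtgg
Tra2b intron 6, 5′ end: cagGTGAGTcagttc
Tra2b intron 6, 3′ end: ctttttctgtctttacAGagg
Clk4 intron 3, 5′ end: tcgGTATGAgtggtt
Clk4 intron 3, 3′ end: gcccacttgccgttccAGaag

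All of these introns began with GT and ended with AG. Srsf2 intron 2 (chr11:116850962-116852020, minus strand, 1059 bases) lies beyond the stop codon, and the others lie between coding exons. Srsf6 intron 2 (chr2:162932143-162933425, plus strand, 1283 bases) is the second of 5, and 1015 of its bases belong to no other annotated transcript. Tra2b introns 5 and 6 (chr16:22249134-22250864 and chr16:22248496-22249049, minus strand) are 1731 and 554 bases long. Tra2a intron 5 (chr6:49245611-49246848, minus strand) has 1238 bases, Srsf3 intron 3 (chr17:29038625-29040774, plus strand) 2150 and Clk4 intron 3 (chr11:51272023-51273077, plus strand) 1055.

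What a count covers differed between the genes. Of 35033 transcripts without an exonic base of their own, 21 (0.0599%) had any count, against 67452 of 106503 (63.3%) with own bases, so a count here is a read in bases that no other annotated transcript covers. The own bases of protein-coding transcripts were mostly 3′ untranslated sequence in Srsf2, Srsf3, Srsf6 and Tra2b (517, 480, 1913 and 2108 bases), and those of retained-intron transcripts were mostly intron (874, 3883, 1015 and 4830). Tra2a and Clk1 had no protein-coding base of their own, and the protein-coding transcripts of Srsf5 and Clk4 had 20 and 38 such bases and no counts. The ratio of the types was therefore tested for 6 of the 10 genes, and the other 4 are described by their retained-intron level alone. In total RNA, an intron of a transcript still being made and an intron of a finished one cannot be told apart. In bulk samples, fewer cells of a type and less RNA per cell cannot be told apart either.

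Total counts per library ranged from 2306870 to 7900178, and the 10 genes took 0.0608% to 0.147% of them. Both tbGFP-positive libraries at 6 h stood apart: 17545 and 17445 genes had counts, against 18600 to 26069 in the other libraries, and 3976 and 4239 retained-intron transcripts, against 5727 to 11130. Markers of pluripotent cells summed to 6340 to 9369 CPM (counts per 1000000 of the library total as scaled by TMM factors) with none of 8 at 0 in any group. The 10 markers of the 2-cell-like state summed to 29180 to 47240 CPM in positive libraries and to 15.7 to 742 in negative ones, where 4 were at 0 at 0 h, 3 at 6 h and none at 24 h. Trophectoderm markers summed to 39.4 to 231.6 CPM, highest in the positive libraries at 6 h, and endoderm and fibroblast markers to 2.27 to 29.0 CPM.

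Srsf6, an SR protein with a pair of RNA recognition motifs, had the clearest change of balance between its types. Its retained-intron share, the percentage of its counts in either type that fell on intron 2, was 2.32% and 3.17% (replicates 1 and 2) in tbGFP-negative cells at 0 h, 0.896% and 0.532% at 6 h, then 5.98% and 5.10% at 24 h. In tbGFP-positive cells it was 4.66% and 2.23% at 0 h, 0.156% and 0.590% at 6 h, then 4.64% and 6.61% at 24 h. In both fractions the libraries at 6 h lay below those at 0 h and at 24 h without overlap. The shares rest on 2 to 125 retained-intron counts per library, and their exact 95% Clopper-Pearson intervals, which cover counting error only, spanned a median of 2.02 percentage points.

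**Figure D1:**
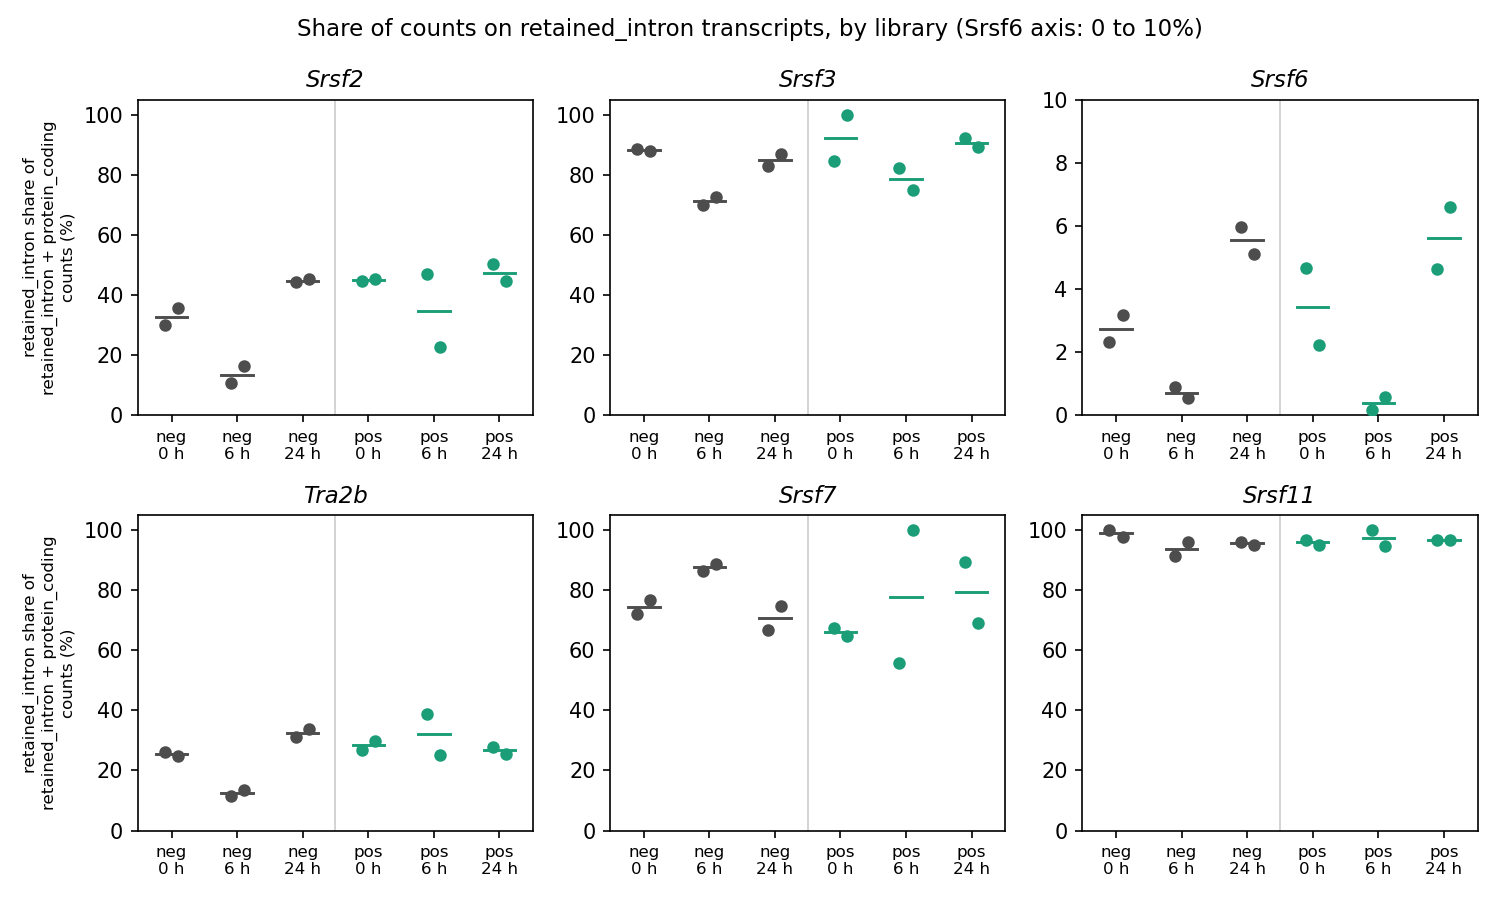
Share of a gene's retained-intron and protein-coding counts that fell on retained-intron transcripts (y axis, percent) in each library (dots) for 6 genes, by hours of sorbitol and sorted fraction, with bars at the group means. Srsf6 (axis to 10%) lay at 0.156% to 0.896% at 6 h and at 2.23% to 6.61% at 0 h and 24 h, while Srsf2 reached its lowest values, 10.8% and 16.2%, in tbGFP-negative cells at 6 h.

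Protein-coding transcripts of Srsf6 were highest at 6 h in both fractions. They had 220.3 and 218.5 CPM in negative cells at 0 h, 798 and 699 at 6 h, then 203 and 186 at 24 h. In positive cells they had 168 and 239 CPM at 0 h, 386 and 597 at 6 h, then 196.8 and 210.3 at 24 h. All 4 libraries at 6 h exceeded all 8 others.

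The retained-intron transcript of Srsf6 had 5.23 and 7.16 CPM in negative cells at 0 h, 7.21 and 3.74 at 6 h, then 12.9 and 10.02 at 24 h. In positive cells it had 8.24 and 5.44 CPM at 0 h, 0.604 and 3.55 at 6 h, then 9.585 and 14.9 at 24 h. The negative groups at 0 h and 6 h overlapped, and the positive libraries at 6 h were the lowest of the 12. Per kilobase of own bases, Srsf6 intron 2 had 0.0532 times the read density of the protein-coding bases in negative cells at 0 h, 0.0138 times at 6 h and 0.111 times at 24 h. In positive cells the density ratios were 0.0633, 0.0080 and 0.113.

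In edgeR's quasi-likelihood test, adjusted by the Benjamini-Hochberg method over all 2405 genes with enough counts of both types, the Srsf6 ratio of retained-intron to protein-coding counts fell in positive cells from 0 h to 6 h by 3.12 on the log2 scale (SE 0.74, adjusted p = 0.0389). It rose from 6 h to 24 h by 3.91 (SE 0.73, adjusted p = 0.0117). These comparisons share the libraries at 6 h. Srsf6 was the only 1 of the 6 genes called in either, where 5.32% and 8.23% of all tested ratios were called. The fall lost its call in 13 of 18 other settings (log2 -4.40 to -2.52, highest adjusted p 0.600), which included leaving out any single library other than the positive ones at 6 h (-3.64 to -2.54, adjusted p 0.0563 to 0.105). The rise lost it in 3 of 18 (log2 3.31 to 5.19, highest adjusted p 0.274): with only the compared groups in the fit (4.04), and without replicate 1 (4.20) or replicate 2 (3.66) of the positive cells at 24 h.

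In negative cells the log2 ratio of Srsf6 was -2.002 (SE 0.70, unadjusted p = 0.0140, adjusted p = 0.603) from 0 h to 6 h and 3.05 (SE 0.68, adjusted p = 0.221) from 6 h to 24 h. No ratio of the 2405 passed the test in either comparison (0% called), with 169 and 278 at an unadjusted p under 0.05, and limma called 0 in both. Without the 2 positive libraries at 6 h, which take no part in the negative comparison, 136 ratios were called from 6 h to 24 h, among them Srsf6 (3.03, adjusted p = 0.00972), Srsf2 (2.40, 0.0149) and Tra2b (1.75, 0.0328). Leaving out either of these libraries alone gave the same 3 calls, with adjusted p from 0.00964 to 0.0328. These libraries enter the comparison of negative cells only through the spread that all groups share.

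The counts of each type were also tested on their own, with 1 value per gene and type. In negative cells Srsf6 protein-coding counts rose from 0 h to 6 h by 1.80 on the log2 scale (SE 0.21, adjusted p = 0.000112), and from 6 h to 24 h they fell by 1.98 (SE 0.21, adjusted p = 2.57e-05). Both calls held in all 17 other settings. In positive cells they rose by 1.26 (SE 0.21, adjusted p = 0.00311) and then fell by 1.26 (SE 0.21, adjusted p = 0.0025). The rise in positive cells was lost without replicate 1 of the positive cells at 0 h (0.89, adjusted p = 0.0611).

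The retained-intron counts of Srsf6 had a log2 difference of -0.16 (SE 0.68, adjusted p = 0.978) from 0 h to 6 h in negative cells and 1.02 (adjusted p = 0.462) from 6 h to 24 h. In positive cells the difference from 0 h to 6 h was -1.62 (SE 0.72, adjusted p = 0.174), and they rose by 2.45 (SE 0.72, adjusted p = 0.0455) from 6 h to 24 h, a call lost in 10 of 16 other settings, among them leaving out any negative library or a positive one at 24 h (2.12 to 2.74, adjusted p 0.0576 to 0.211).

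**Figure D2:**
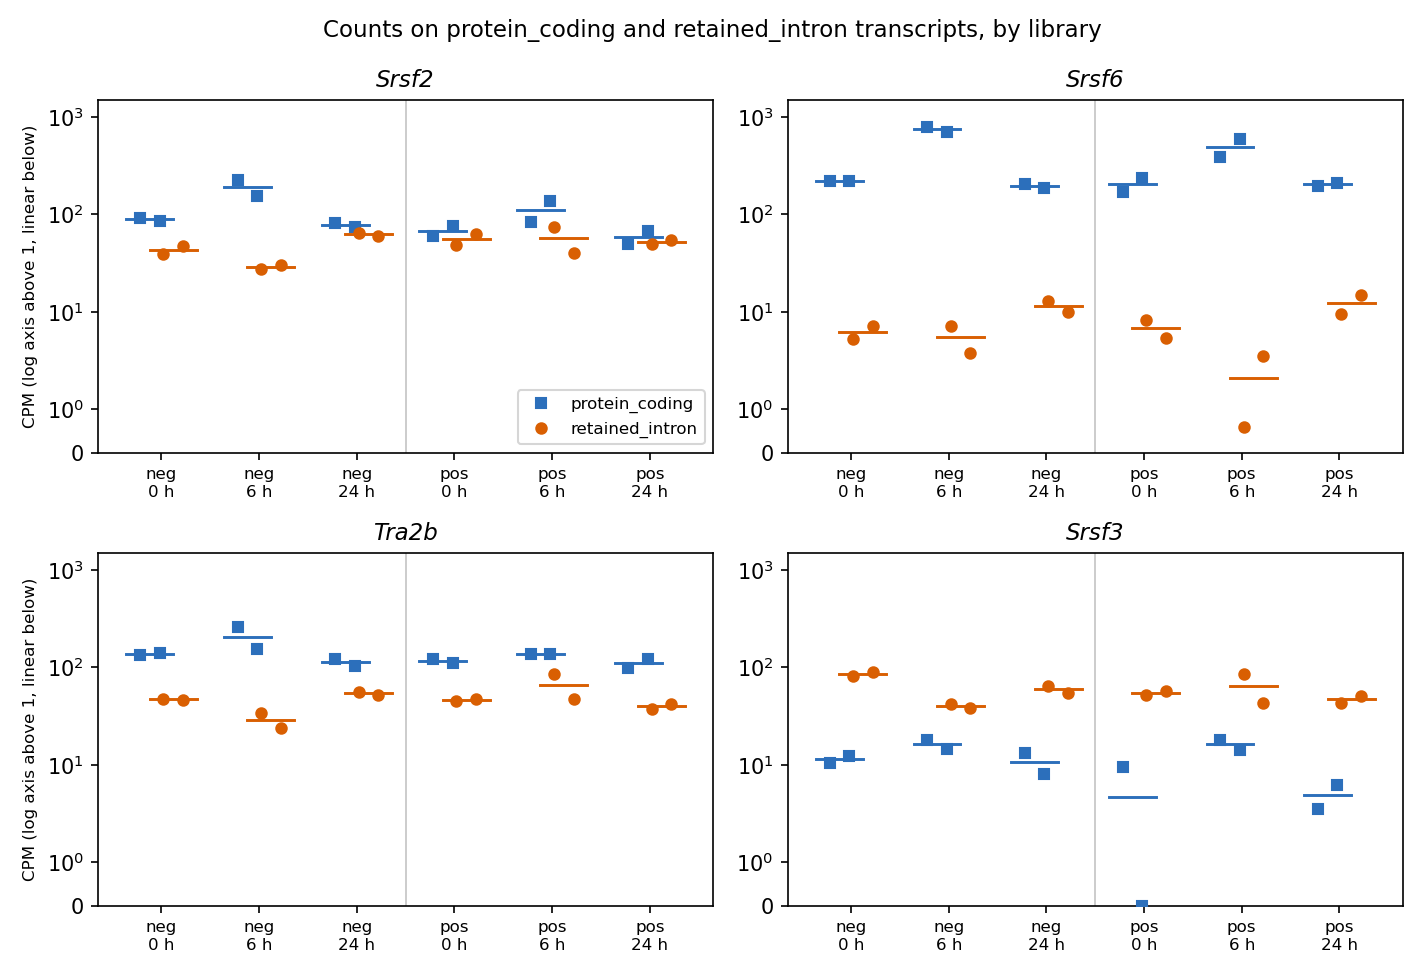
CPM (y axis, log scale above 1 and linear below) of protein-coding (squares) and retained-intron (circles) transcripts of Srsf2, Srsf6, Tra2b and Srsf3 in each library, with bars at the group means. Srsf6 protein-coding transcripts lay at 386 to 798 CPM at 6 h and at 168 to 239 CPM at 0 h and 24 h.

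Srsf2, a nuclear speckle component that binds both purine-rich and C-rich enhancers, had its lowest shares of intron 2 in negative cells at 6 h. In negative cells the retained-intron share was 29.9% and 35.5% at 0 h, 10.8% and 16.2% at 6 h, then 44.2% and 45.2% at 24 h. In positive cells it was 44.6% and 45.3% at 0 h, 47.1% and 22.5% at 6 h, then 50.4% and 44.5% at 24 h. The negative groups did not overlap in any pair of times, while the 3 positive groups overlapped, with the 2 libraries at 6 h far from each other.

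Protein-coding counts of Srsf2 were 93.0 and 85.8 CPM in negative cells at 0 h, 226.3 and 155.5 at 6 h, then 81.7 and 73.6 at 24 h. They were 60.1 and 75.6 CPM in positive cells at 0 h, 83.3 and 139 at 6 h, then 49.5 and 67.3 at 24 h. The highest values of each fraction were thus at 6 h. Retained-intron counts of Srsf2 were 39.6 and 47.3 CPM, 27.5 and 30.15, and 64.85 and 60.8 at 0, 6 and 24 h in negative cells, and 48.5 and 62.5, 74.2 and 40.4, and 50.2 and 54.0 in positive cells. The type with the intron was lowest where the type without it was highest, in negative cells at 6 h.

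In negative cells, Srsf2 protein-coding counts rose from 0 h to 6 h by 1.13 (SE 0.26, adjusted p = 0.0229), and the retained-intron counts had a log2 difference of -0.57 (SE 0.29, adjusted p = 0.382). From 6 h to 24 h the protein-coding counts fell by 1.34 (SE 0.26, adjusted p = 0.00488) and the retained-intron counts rose by 1.09 (SE 0.29, adjusted p = 0.0329). The ratio had log2 differences of -1.66 (SE 0.66, adjusted p = 0.608) and 2.40 (SE 0.66, adjusted p = 0.231). The first rise was lost in 7 of 17 other settings, among them without any of the 4 negative libraries compared (0.75 to 1.30, adjusted p 0.0663 to 0.439), or without replicate 1 of the positive cells at 0 h (1.04, 0.0612). The later fall was lost in 4 of 17, among them without replicate 1 of the negative cells at 6 h (-1.11, 0.0841) or either one at 24 h (-1.41, 0.0569, and -1.26, 0.0899). The later rise was lost in 9 of 17, each without a negative library, a positive one at 24 h or positive replicate 2 at 0 h (0.95 to 1.14, adjusted p 0.0514 to 0.288).

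In positive cells the Srsf2 ratio had a log2 difference of -0.68 (SE 0.66, adjusted p = 0.574) from 0 h to 6 h and 0.83 (SE 0.66, adjusted p = 0.470) from 6 h to 24 h. At 6 h the ratio was 1.73 higher on the log2 scale in positive than in negative cells (SE 0.67, adjusted p = 0.160), and the test of whether the gap between fractions had changed since 0 h gave 0.98 (SE 0.93, adjusted p = 0.708). The gap at 6 h passed the test without replicate 2 of the positive cells at 6 h (2.54, adjusted p = 0.0128), the library with the share of 22.5%. The Srsf2 gene (chr11:116849901-116853094, minus strand) lies wholly within the span of Mettl23 on the opposite strand, and 655 of its bases within Mfsd11. Bases shared with either were not counted.

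Srsf3, the smallest SR protein, which couples splicing to export of messenger RNA, had a retained-intron share of 88.6% and 87.9% in negative cells at 0 h, 70.0% and 72.5% at 6 h, then 83.0% and 87.1% at 24 h. In positive cells the share was 84.8% and 100%, 82.5% and 74.8%, and 92.3% and 89.1% at these times. The 6 h libraries lay below those at 0 h and 24 h in both fractions. The high shares stand beside 3883 own bases of the retained-intron type against 480, mostly 3′ untranslated, of the protein-coding type. Per kilobase, the intron density of Srsf3 was 0.927, 0.305 and 0.692 times that of its protein-coding bases in negative cells, and 1.43, 0.487 and 1.19 times in positive cells.

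In the fit over all libraries no ratio of Srsf3 passed the test (log2 -1.60, SE 1.17, adjusted p = 0.861 from 0 h to 6 h in negative cells, and -2.45, SE 1.33, adjusted p = 0.281 in positive cells), with 0 to 128 protein-coding counts per library. The value in positive cells rests on single libraries: it was called at -9.32 (adjusted p = 0.0257) without replicate 1 at 0 h. That left the library with 0 protein-coding counts, so the fitted value is no bound. Other settings ran up to -0.58. Its retained-intron counts were 81.0 and 90.3 CPM in negative cells at 0 h and 42.3 and 37.8 CPM at 6 h, a log2 difference of -1.07 (SE 0.29, adjusted p = 0.0541). Without either or both of the positive libraries at 6 h this difference passed the test (-1.15 to -1.07, adjusted p 0.00036 to 0.000788). The lower level was largest in the first intron: Srsf3-210, whose 2722 own bases lie there, had 57.9 and 63.2 CPM at 0 h and 24.7 and 23.9 at 6 h, a log2 difference of -1.45 (SE 0.39, adjusted p = 0.0522) that likewise passed without either or both positive libraries at 6 h (-1.46 to -1.28, adjusted p 0.000162 to 0.000771).

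Introns 3 and 4 of Srsf3, counted to Srsf3-204, had 23.2 and 27.1 CPM in negative cells at 0 h, 17.6 and 13.9 at 6 h, then 36.8 and 28.3 at 24 h. The 24 h libraries were above those at 6 h, with a log2 difference of 1.18 (SE 0.41, adjusted p = 0.131), whereas the first intron had 27.9 and 26.5 CPM at 24 h, a log2 difference of 0.30 (adjusted p = 0.754) from 6 h. Whether the introns of Srsf3 differed from each other was not tested.

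Srsf5, Srsf7 and Srsf11 gave sparser values. Srsf7, an export adaptor with a zinc knuckle, had shares from 55.8% to 100%, from 22 to 83 retained-intron and 0 to 33 protein-coding counts per library. Its 95 own intron bases lie in intron 5, its protein-coding ones mostly in intron 1, so its share does not compare spliced with unspliced RNA, and it was higher at 6 h than at 0 h in negative cells where those of Srsf2, Srsf3, Srsf6 and Tra2b were lower. Srsf11, an SR-related protein, had shares of 91.4% to 100% with 0 to 21 protein-coding counts per library. Over all libraries 56 of these were of Srsf11-209, whose own bases lie in intron 1, and 37 of Srsf11-204, whose own bases are exonic. The share of Srsf11 is thus no plain comparison of spliced with unspliced RNA either. Retained-intron counts of Srsf11 ran from 2.72 CPM, in replicate 1 of the positive cells at 6 h, to 52.1 CPM in negative cells at 24 h.

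Srsf5, whose protein-coding transcripts had no counts, had 3.73 to 17.8 CPM of retained-intron counts, the highest in positive cells at 0 h (10.9 and 17.8). With the retained-intron counts summed per gene, no test of these 3 genes passed. From 0 h to 6 h in positive cells the log2 differences were -1.60 for Srsf5 (adjusted p = 0.0971), -0.84 for Srsf11 and -0.16 for Srsf7. Srsf11 had a log2 difference of 1.39 (adjusted p = 0.137) from 6 h to 24 h there.

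Tra2b, which binds GAA-rich enhancers, had a retained-intron share of 26.2% and 24.9% in negative cells at 0 h, 11.6% and 13.6% at 6 h, then 31.3% and 33.7% at 24 h. In positive cells it was 27.0% and 29.9%, 38.9% and 25.3%, and 27.8% and 25.5%. The pattern over groups resembled that of Srsf2: non-overlapping negative groups with the lowest at 6 h, and overlapping positive ones.

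Protein-coding counts of Tra2b were 134 and 139 CPM in negative cells at 0 h, 260.0 and 152.4 at 6 h, then 122.7 and 103.5 at 24 h, and 97.6 to 138 CPM in positive cells. Its retained-intron counts were 47.4 and 46.0 CPM, 34.1 and 23.9, and 55.85 and 52.5 in negative cells, and 45.2 and 46.95, 86.3 and 46.8, and 37.6 and 42.0 in positive cells. At 6 h the fractions did not overlap in retained-intron level, and replicate 1 of the positive cells had the highest value of all.

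In negative cells from 6 h to 24 h, Tra2b protein-coding counts fell by 0.91 (SE 0.23, adjusted p = 0.0257), while its retained-intron counts had a log2 difference of 0.86 (SE 0.30, adjusted p = 0.107) and its ratio one of 1.75 (SE 0.57, adjusted p = 0.285). The Tra2b ratio had a log2 difference of -1.26 (SE 0.57, adjusted p = 0.682) from 0 h to 6 h. The fall of the protein-coding counts was lost in 6 of 17 other settings, among them without either negative library at 0 h (-0.91 and -0.90, adjusted p 0.0507 and 0.0523), either one at 24 h (-1.03, 0.119, and -0.78, 0.278) or replicate 1 at 6 h (-0.54, 0.359).

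At 6 h the retained-intron counts of Tra2b were 1.15 higher on the log2 scale in positive than in negative cells (SE 0.30, adjusted p = 0.0212). The Tra2b ratio was 1.69 higher (SE 0.57, adjusted p = 0.115). The first call was lost with upper-quartile scaling (0.78, adjusted p = 0.0729), without either negative library at 6 h (1.35, 0.0642, and 0.83, 0.223) and without replicate 1 of the positive cells at 6 h (0.65, 0.0909). The ratio passed without replicate 2 of the positive cells at 6 h (2.15, adjusted p = 0.0191).

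**Figure D3:**
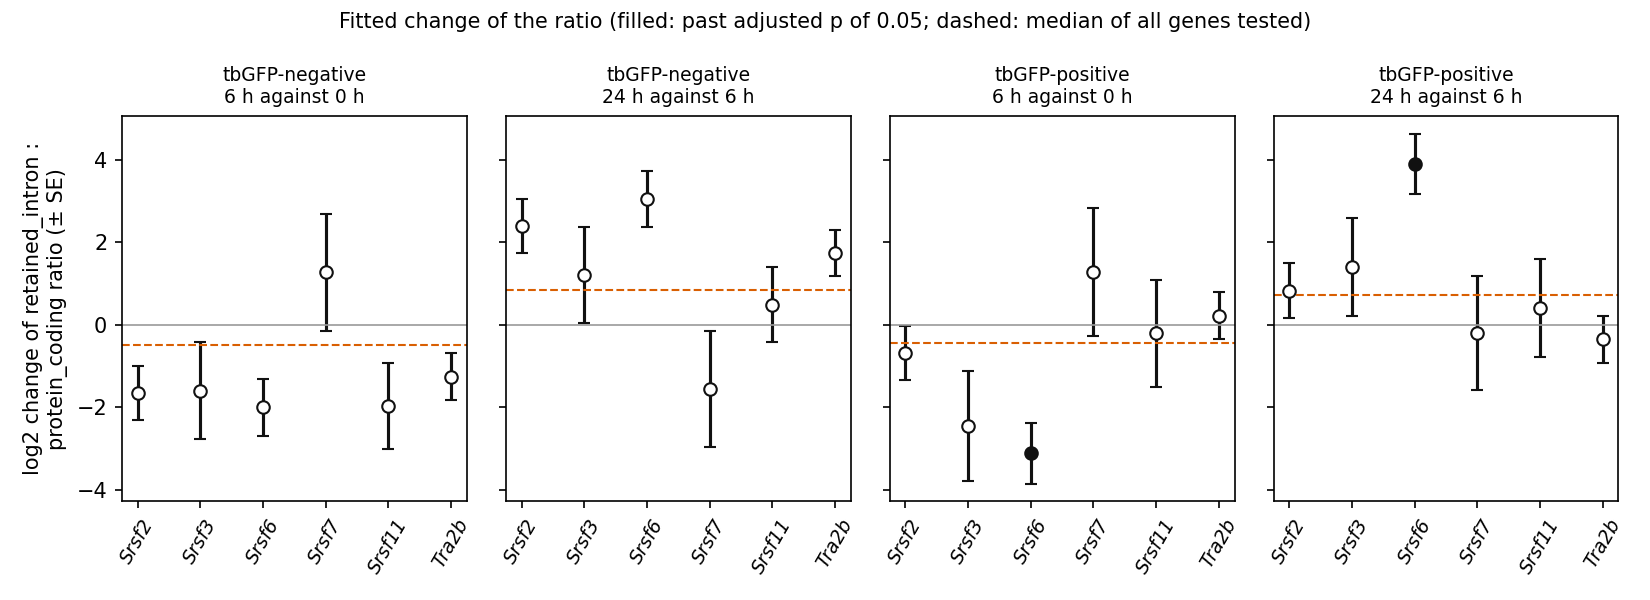
Log2 change of the ratio of retained-intron to protein-coding counts (y axis, with its SE) for 6 genes in 4 comparisons of times within a fraction. Filled symbols, Srsf6 in both comparisons of tbGFP-positive cells, passed an adjusted p of 0.05, and dashed lines mark the median of all 2405 genes tested, -0.49 and 0.84 in negative and -0.43 and 0.73 in positive cells.

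The ratios moved over all genes too, and the members' medians are to be read beside that. These medians include Srsf7 and Srsf11, whose protein-coding counts came mostly from intron bases. From 0 h to 6 h in negative cells the median log2 difference was -1.63 over the 6 genes and -0.49 over the 2405 genes tested, and from 6 h to 24 h it was 1.48 and 0.84. In positive cells the medians were -0.44 and -0.43 from 0 h to 6 h, and 0.62 and 0.73 from 6 h to 24 h. Retained-intron transcripts as a whole took 2.92% and 3.48% of counts in negative cells at 0 h, 2.32% and 2.58% at 6 h, then 4.44% and 4.51% at 24 h, against 2.30% to 3.04% in positive cells.

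In the other comparisons of ratios no member was called. From 0 h to 24 h these were 0% of all tested ratios in negative and 0% in positive cells, with 54 and 79 at an unadjusted p under 0.05 in edgeR and none called by limma. Between fractions, 0.0832% of ratios were called at 0 h, 1.95% at 6 h and 0% at 24 h (48 at an unadjusted p under 0.05). The tests of a changed gap between fractions called 0% at 6 h and 0% at 24 h, with 324 and 37 at an unadjusted p under 0.05, and limma called 0 in both and between fractions at 24 h. In negative cells from 0 h to 24 h the log2 ratios ran from -1.47 for Srsf11 to 1.05 for Srsf6, and in positive cells from -1.05 for Srsf3 to 1.09 for Srsf7. Over other settings these last values ran from -7.92 to 0.82 for Srsf3, which changed sign, and from 0.21 to 2.10 for Srsf7.

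Tra2a, the paralogue of Tra2b, could be followed only through its introns and a decay-targeted transcript, and these did not move together. Its retained-intron counts were 53.8 and 73.6 CPM in negative cells at 0 h, 66.1 and 73.2 at 6 h, then 75.6 and 90.6 at 24 h, and 74.9 and 68.45, 143 and 115, and 75.4 and 81.1 in positive cells. The 2 positive libraries at 6 h were the highest. In positive cells these counts rose from 0 h to 6 h by 0.83 (SE 0.23, adjusted p = 0.0413), and at 6 h they were 0.85 higher in positive than in negative cells (SE 0.23, adjusted p = 0.0223).

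The rise was lost in 12 of 16 other settings, among them leaving out any single library other than the positive ones at 6 h (0.65 to 0.84, adjusted p 0.0536 to 0.18). The gap was lost in 4 of 16 settings: with upper-quartile scaling (0.50, adjusted p = 0.12), without a low-count filter (0.75, 0.0663) and without replicate 1 (0.70, 0.195) or replicate 2 (0.84, 0.119) of the negative cells at 6 h.

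A fit with 1 value per transcript was chosen after the introns of Tra2a were seen to differ. Its calls for Tra2a restate that observation, and the introns were not tested against each other. The first intron, counted to Tra2a-203 through 3595 own bases, had 47.0 and 56.1 CPM in negative cells at 0 h, 33.5 and 38.3 at 6 h, then 57.3 and 71.6 at 24 h, and 61.9 and 56.3, 122 and 94.0, and 63.7 and 66.3 in positive cells. At 6 h the stretch counted to Tra2a-203 was thus lowest in the negative and highest in the positive fraction. The gap between the fractions at 6 h was 1.54 on the log2 scale (SE 0.25, adjusted p = 0.000399), and its call held in all 15 other settings (1.10 to 1.70). From 6 h to 24 h in negative cells Tra2a-203 rose by 0.98 (SE 0.25, adjusted p = 0.0283), a call lost in 5 of 16 settings: with upper-quartile scaling (0.64, adjusted p = 0.162) and without any 1 of the 4 libraries compared (0.62 to 1.12, adjusted p 0.0847 to 0.488).

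Intron 5 of Tra2a, counted to Tra2a-205, had 6.72 and 17.5 CPM in negative cells at 0 h, 32.5 and 34.9 at 6 h, then 18.3 and 19.0 at 24 h, and 13.0 and 12.1, 21.4 and 21.1, and 11.7 and 14.9 in positive cells. It was highest at 6 h in both fractions and, unlike Tra2a-203, higher there in negative cells. The log2 difference from 0 h to 6 h in negative cells was 1.28 (SE 0.43, adjusted p = 0.152), and without both positive libraries at 6 h it was 1.43 (adjusted p = 0.00529). Between positive and negative cells at 6 h it was -0.71 (SE 0.42, adjusted p = 0.278). Tra2a-202, typed nonsense_mediated_decay with 306 own bases in the first intron, had 9.19 and 2.72 CPM in positive cells at 0 h and 40.4 and 22.98 at 6 h. The call of this rise (2.28, SE 0.57, adjusted p = 0.0267) was lost in 5 of 15 settings, each without 1 library (1.66 to 2.29). These were either negative one at 0 h, negative replicate 1 at 6 h, or positive replicate 2 at 0 h or 24 h. In negative cells the means of Tra2a-202 were 8.14, 20.9 and 10.8 CPM at 0, 6 and 24 h. Tra2a-202 was thus highest at 6 h there too, unlike Tra2a-203. It is 2090 bases long and does not hold the first intron whole. Its own bases are exon in this transcript, so the pair does not compare parts of a retained intron.

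**Figure D4:**
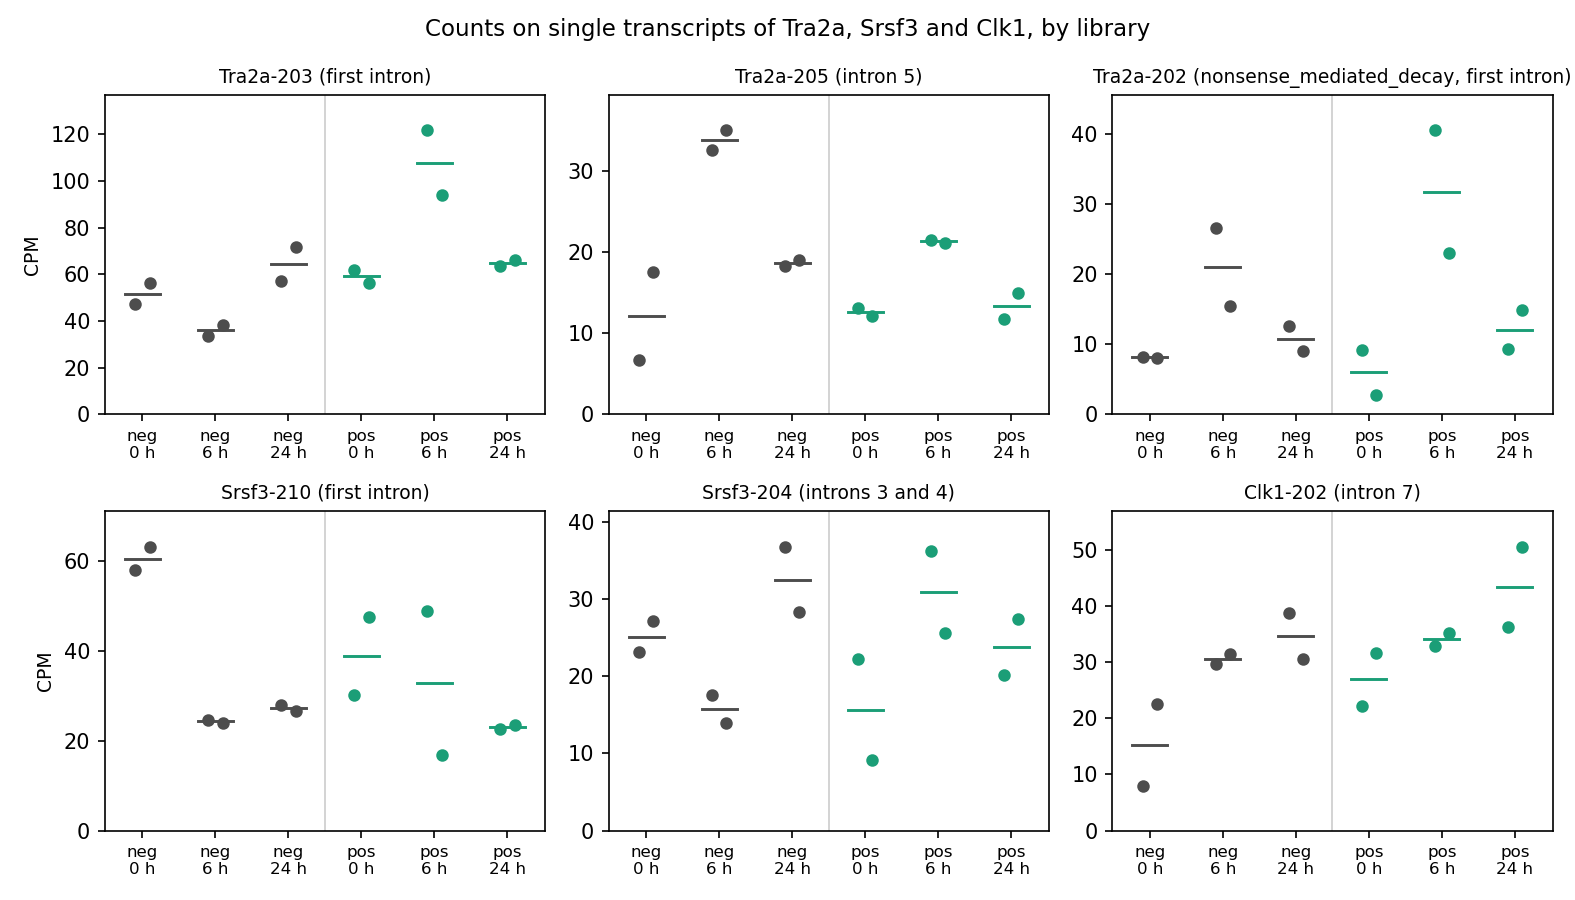
CPM (y axis) of 6 single transcripts of Tra2a, Srsf3 and Clk1 in each library, by hours of sorbitol and sorted fraction, with bars at the group means. The first intron of Tra2a (Tra2a-203) reached 94.0 to 122 CPM in tbGFP-positive and 33.5 to 38.3 CPM in tbGFP-negative cells at 6 h, while its intron 5 (Tra2a-205) lay at 21.1 to 21.4 and 32.5 to 34.9 CPM there.

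Clk1, a dual-specificity kinase that phosphorylates SR proteins, had retained-intron counts of 27.3 and 41.35 CPM in negative cells at 0 h, 40.3 and 43.7 at 6 h, then 54.8 and 50.5 at 24 h. In positive cells they were 35.2 and 52.6, 58.2 and 65.0, and 56.6 and 73.5 CPM. Neighbouring times overlapped in negative cells from 0 h to 6 h, while the 24 h libraries were above both. No retained-intron test of Clk1 passed, with log2 differences of 0.30, 0.59 and 0.29 in negative cells (6 h and 24 h against 0 h, and 24 h against 6 h) and 0.48, 0.57 and 0.09 in positive cells.

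Intron 7 of Clk1, with 973 own bases in Clk1-202, had 7.84 and 22.6 CPM in negative cells at 0 h, 29.7 and 31.4 at 6 h, then 38.7 and 30.4 at 24 h, a log2 difference of 0.80 (SE 0.40, adjusted p = 0.393) from 0 h to 6 h. In positive cells it had 22.2 to 50.5 CPM. Clk1-212, whose 1811 own bases lie beyond the end of the reference transcript, had 3.86 to 16.03 CPM. Part of what is counted to the retained-intron type of Clk1 is therefore not intron. Introns 3, 4 and 6, which Clk1-204 holds whole, had no base that only 1 transcript covers, so no read in them was counted.

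Clk1-203, typed processed_transcript, was at 1.81 and 0 CPM in positive cells at 6 h and at 5.82 to 14.2 CPM in all other groups. It fell by 3.85 (SE 0.94, adjusted p = 0.0251) from 0 h to 6 h in positive cells and rose by 4.29 (adjusted p = 0.0112) from 6 h to 24 h. It was also lower in positive than in negative cells at 6 h (log2 -3.18, adjusted p = 0.0398). The fall was lost without any single library at 0 h or 24 h (-4.22 to -3.33, adjusted p 0.0505 to 0.104), the rise without replicate 1 (4.14, 0.0771) or replicate 2 (4.37, 0.0574) of the positive cells at 24 h, and the gap without any single library other than positive replicate 1 at 6 h (-3.40 to -1.86, adjusted p 0.0535 to 0.132).

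Clk4, the close paralogue of Clk1, had the flattest retained-intron level: 19.0 and 15.5 CPM in negative cells at 0 h, 17.3 and 16.4 at 6 h, then 20.6 and 17.4 at 24 h, and 9.38 to 22.2 CPM in positive cells. In negative cells the 0 h libraries overlapped those of both later times, and the 24 h libraries lay just above those at 6 h. The log2 differences between groups ran from -0.53 to 0.20 and none passed the test. For Clk1 and Clk4, then, a level of retained-intron counts was measured but not its balance with spliced transcripts. For Clk1 that level leaves out the introns that its retained-intron transcripts hold whole.

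Counted over the 10 genes, retained-intron levels were called for 0 from 0 h to 6 h, 0 from 0 h to 24 h and 1 from 6 h to 24 h in negative cells, where 1.81%, 0.512% and 2.92% of all tested retained-intron values were called. In positive cells these counts were 1 (Tra2a), 0 and 1 (Srsf6), against 7.89%, 0.107% and 9.87%. Between fractions they were 0 at 0 h, 3 at 6 h (Srsf2, Tra2a and Tra2b, all higher in positive cells) and 0 at 24 h, against 1.47%, 8.65% and 0.98%. The tests of a changed gap called none of the 10 at 6 h or 24 h (0.149% and 0.0426% over all genes). Srsf2 at 6 h (0.95, SE 0.29, adjusted p = 0.048) lost its call in 15 of 16 other settings, which include leaving out any single library other than replicate 2 of the positive cells at 6 h (0.45 to 0.96, adjusted p 0.0567 to 0.256).

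The medians of the retained-intron differences over the 10 genes were 0.08, 0.44 and 0.42 in negative cells (6 h and 24 h against 0 h, then 24 h against 6 h), beside -0.30, 0.48 and 0.80 over all genes. In positive cells they were 0.11, 0.02 and -0.01 beside -0.37, 0.30 and 0.70. From 6 h to 24 h the median over the 10 genes was thus below that of all retained-intron values in both fractions. Between fractions at 6 h the medians were 0.30 and -0.36, with the 2-cell-like markers far higher in the positive cells by the sort itself. Trophectoderm markers also summed to 201.0 to 231.6 CPM in the positive and 67.6 to 75.7 CPM in the negative libraries at 6 h, with 2 and 1 of 7 at 0. The part of either set of cells in these differences was not tested.

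Protein-coding levels could be tested for 6 of the genes. In negative cells 2 rose from 0 h to 6 h (Srsf2 and Srsf6), 0 changed from 0 h to 24 h and 3 fell from 6 h to 24 h (Srsf2, Srsf6 and Tra2b), where 6.16%, 5.67% and 10.4% of all protein-coding values were called. In positive cells 1 rose, 0 changed and 2 fell (Srsf6 and Srsf2), against 5.87%, 0.905% and 9.42%. Between fractions 0 were called at 0, 6 and 24 h, against 6.74%, 12.2% and 5.07%, and 0 in the tests of a changed gap, against 0.437% and 1.03%. Srsf2 in positive cells from 6 h to 24 h (log2 -0.92, SE 0.26, adjusted p = 0.0434) lost its call in 13 of 16 other settings, 11 of them leaving out any library but positive replicate 1 at 6 h (-1.16 to -0.40, adjusted p 0.0584 to 0.26).

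Medians of the protein-coding differences over the 6 genes were 0.88 from 0 h to 6 h and -0.77 from 6 h to 24 h in negative cells, beside 0.15 and -0.01 over all protein-coding values. In positive cells they were 0.46 and -0.66, beside -0.08 and 0.12. At the median, the counts typed protein-coding of these genes were thus higher at 6 h in both fractions, by more in the negative one. That difference was not tested over the list. For Srsf7 and Srsf11 among them, these counts came mostly from intron bases.

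Sums of all transcripts of a gene gave few calls. For Srsf5, Tra2a, Clk1 and Clk4 these sums hold no protein-coding counts, so they are not levels of spliced RNA. The Tra2a sum holds only its retained-intron counts and those of Tra2a-202. In negative cells Srsf6 rose by 1.74 (SE 0.21, adjusted p = 0.000249) from 0 h to 6 h and fell by 1.87 (SE 0.21, adjusted p = 7.29e-05) from 6 h to 24 h, the only 1 of the 10 called in each. None was called from 0 h to 24 h. Over all genes 4.44%, 7.91% and 3.99% were called in these comparisons. Both Srsf6 calls held in all 20 other settings (1.39 to 1.75, and -2.01 to -1.47). In positive cells Srsf6 rose by 1.23 (adjusted p = 0.00458) and fell by 1.19 (adjusted p = 0.0043), and Tra2a rose by 1.05 (adjusted p = 0.014) and fell by 0.83 (adjusted p = 0.0291). These were 2 of the 10 in each comparison, against 5.9% and 8.82% of all genes, and 0 from 0 h to 24 h, against 0.552%.

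Each of these calls in positive cells was lost in some settings. With only the compared groups in the fit none of the 4 held (adjusted p 0.217 to 0.364). The rises were also lost without replicate 1 (Srsf6, 0.93, adjusted p = 0.0567) or replicate 2 (Tra2a, 0.84, 0.103) of the positive cells at 0 h, the fall of Srsf6 without replicate 1 at 24 h (-1.13, 0.0685), and that of Tra2a in 9 of 19 settings, 7 of them without a library at 6 h or 24 h other than positive replicate 2 at 6 h (-0.87 to -0.56, 0.061 to 0.193). Between fractions Tra2a was 0.83 higher in positive cells at 6 h (SE 0.21, adjusted p = 0.0212), 1 of the 10 where 12.1% of genes were called, and lost this call in 5 of 19 settings, among them without either negative library (0.79 and 0.74, 0.135 and 0.16) or replicate 1 of the positive cells (0.57, 0.0623). None of the 10 was called at 0 h or 24 h (7.11% and 5.46%) or in the tests of a changed gap (0.17% and 0.97%).

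In the fit per transcript, retained-intron transcripts of the 10 genes were called 0 times from 0 h to 6 h in negative cells and 3 times from 6 h to 24 h, when Tra2a-203, Tra2b-208 and Srsf2-203 rose, against 2.69% and 4.69% of all transcripts. In positive cells the counts were 0 from 0 h to 6 h and 2 from 6 h to 24 h, when Srsf6-204 and Srsf11-208 rose, against 5.8% and 8.42%. Between fractions at 6 h 2 were higher in positive cells, Tra2a-203 and Tra2b-208, against 9.85%. Tra2b-208 holds introns 5 and 6 whole and reaches into introns 4 and 7. It had 19.96 and 16.4 CPM in negative and 63.1 and 26.7 CPM in positive cells at 6 h.

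Tra2b-208 was 1.23 higher in positive cells at 6 h (SE 0.36, adjusted p = 0.0355), a call lost in 10 of 15 settings, 9 of them without a negative library, positive replicate 1 at 6 h or a positive library at 24 h (0.51 to 1.26, adjusted p 0.0589 to 0.244). It rose by 1.30 (SE 0.35, adjusted p = 0.0406) from 6 h to 24 h in negative cells, lost in 11 of 16, 10 of them without any library but the positive ones at 6 h (0.91 to 1.30, 0.0612 to 0.492). The first intron of Tra2b, in Tra2b-203, had 7.49 to 23.2 CPM and was not called. Srsf2-203 rose by 1.26 (SE 0.29, adjusted p = 0.0149), lost without any of the 4 libraries compared (0.93 to 1.20, 0.138 to 0.337). The calls of Srsf6-204 (2.55, adjusted p = 0.0394) and Srsf11-208 (1.94, SE 0.54, adjusted p = 0.0348) were lost in 9 and 6 of 15 settings, 8 and 6 of them without a negative library (for Srsf11-208, at 6 h or 24 h) or a positive one at 24 h (2.21 to 2.84, 0.0539 to 0.191, and 1.89 to 2.00, 0.0552 to 0.14).

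Levels per own kilobase differed between the genes. In negative cells at 0 h the retained-intron bases of Srsf2 had 49.7 CPM per kilobase, those of Srsf3 22.1, Tra2a 13.2, Clk1 9.99, Tra2b 9.67, Srsf5 7.93, Srsf11 6.52, Srsf6 6.10 and Clk4 5.87, and the 95 bases of Srsf7 had 111. The protein-coding bases had 173 CPM per kilobase in Srsf2, 115 in Srsf6, 64.7 in Tra2b and 23.8 in Srsf3. Srsf6 thus had a lower intron level than Srsf2 beside a protein-coding level of the same order. The ratio of these densities for Srsf2 was 0.287, 0.0893 and 0.479 at 0, 6 and 24 h in negative cells and 0.484, 0.305 and 0.528 in positive cells, and for Tra2b 0.150, 0.0613 and 0.209, and 0.173, 0.212 and 0.158.

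Among related genes, sums of all transcripts were tested for 17 of 18 other SR and SR-like proteins. From 0 h to 6 h in negative cells 1 rose, Luc7l3 (1.24, adjusted p = 0.00819), and 0 fell, with a median of 0.20 beside 0.05 over all genes. In positive cells 2 rose and 3 fell, led by Srrm2 (log2 -3.44), Acin1 (-3.16) and Luc7l3 (1.65). Over all genes 4.44% and 5.9% were called in these comparisons. The share was 7.91% and 8.82% from 6 h to 24 h in negative and positive cells, and 12.1% between fractions at 6 h. The positive libraries at 6 h had 1 and 22 counts of Srrm2 and 0 and 23 of Acin1, none of them protein-coding. The folds of Srrm2 and Acin1 thus rest on few counts and are not levels of spliced RNA. Of 13 of 14 SR protein kinases and phosphatases, Ppp1r8, a nuclear regulator of protein phosphatase 1, rose by 1.00 (adjusted p = 0.00389) from 0 h to 6 h in negative cells and fell by 0.97 from 6 h to 24 h, and none changed in positive cells in either comparison with 6 h. Of 24 of 26 hnRNP proteins, 0 changed from 0 h to 6 h in negative cells. From 6 h to 24 h there, 2 rose and 2 fell (Hnrnpll 1.39, Hnrnpa3 -0.99 and Hnrnpa2b1 0.70 among them). Hnrnpll had no protein-coding counts, and nearly all counts of Hnrnpa2b1 were of retained-intron transcripts, so these rises are not levels of spliced RNA. In positive cells 2 hnRNP genes rose and 0 fell from 0 h to 6 h (Hnrnph1 3.17 and Hnrnpd 1.18), and 0 rose and 4 fell from 6 h to 24 h (Hnrnpd -2.07, Ptbp1 -1.62 and Syncrip -1.19 among them).

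Of 25 of 26 factors that recognise splice sites, Sf3b1 of the U2 particle rose by 0.84 (adjusted p = 0.00373) from 0 h to 6 h in negative cells, and 3 fell from 6 h to 24 h (Sf3a1 -0.77, Sf3a3 -0.72 and Sf3b3 -0.57). In positive cells 0 rose and 2 fell from 0 h to 6 h, and 2 rose from 6 h to 24 h. In each case these were Eftud2 and Snrpb2, which had 0 counts in both positive libraries at 6 h. At 0 h and 24 h most of their counts in positive cells were of retained-intron transcripts. Between fractions at 6 h 1 was higher and 5 were lower in positive cells. Of 17 of 20 factors of nonsense-mediated and nuclear RNA decay, 4 rose and 0 fell from 0 h to 6 h in negative cells, among them the exon junction protein Magoh (1.17), the exosome nuclease Dis3 (1.15) and Upf2 (0.94). In positive cells 0 rose and 1 fell, the decay kinase Smg1 (-0.87), and between fractions at 6 h 3 were lower in positive cells (Smg1 -1.44, Upf3b -0.996 and Upf2 -0.88). Of 20 RNA-binding proteins with known regulated introns, 3 rose and 1 fell from 0 h to 6 h in negative cells. Tia1 was at -2.10, with most of its counts on retained-intron transcripts, Ncl at 1.49 and Ddx5 at 1.07. For that comparison the medians of the lists were -0.08 for kinases and phosphatases, -0.15 for hnRNP proteins, 0.08 for splice-site factors, 0.38 for decay factors and 0.04 for RNA-binding proteins, beside 0.05 over all genes and 0.22 over the 10 members.

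The ratio of retained-intron to protein-coding counts was called for none of these related genes in negative cells. Of the other SR proteins 10 had a ratio, with medians of -0.52 from 0 h to 6 h and 1.19 from 6 h to 24 h, beside -0.49 and 0.84 over all genes. In positive cells from 0 h to 6 h it fell for 5 of 55 related genes, where 5.32% of all ratios were called: Luc7l (-3.26, adjusted p = 0.0311), Hnrnpu (-2.13, 0.0435), Ogt (-3.13, 0.0389), and Srsf1 and Syncrip. From 6 h to 24 h it rose for 5 of 55, where 8.23% were called: Hnrnpu (2.88, adjusted p = 0.0117), Ogt (3.02, 0.0345), Srsf1, Syncrip and Prpf3. Retained-intron counts of Srsf1 and Syncrip were 0 in both positive libraries at 6 h, and those of Prpf3 were 1 and 0, so no fold is given for them. Between fractions at 6 h the ratio of Snrpc was lower in positive cells (-4.77, adjusted p = 0.0435), 1 of 55 where 1.95% were called. Its protein-coding counts at 6 h were 2 and 4 in negative and 69 and 118 in positive cells. Its retained-intron counts were 33 and 30 against 24 and 48, so this fold rests on few protein-coding counts in negative cells. All of these comparisons in or with positive cells share the positive libraries at 6 h.

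The genes whose log2 ratio over the 12 libraries was most like the median of the 6 members were Bzw2 (Pearson r = 0.912), Ibtk (0.876), Gapvd1 (0.847), Chmp1a (0.832) and Picalm (0.830). The libraries fall into 6 groups that differ in depth, so these values describe likeness only.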

How the data were processed

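Each of the 12 deposited tables lists 142446 Ensembl transcripts with a raw read count, per the file headers. Total RNA libraries were stranded, per the labels' protocols. FastQC, HISAT2, featureCounts, DESeq2 and mm10 are named, without versions or settings, per the submitters' processing notes. The handling of reads in shared bases is not given in the sources used here. It was tested on the files: reads in bases shared by transcripts on either strand had been left out.

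Transcripts were matched to GENCODE M21 (141536 matched). The 910 others, with 0.0606% to 0.0903% of counts, were left out. The design assumed gene counts, but the files hold transcript counts, so these were summed per gene (19384 tested) or per gene and type (23495 tested). Rows needed at least 10 counts in at least 2 libraries. For ratios, 2405 of 9120 genes with both types had a mean of at least 5 counts of each. R 4.3.3 and edgeR 4.0.16 were used, with TMM factors, quasi-likelihood tests, 1 mean per group over all 12 libraries and Benjamini-Hochberg adjustment over all rows (threshold 0.05), and the fits were tested on simulated data. In the ratio fit both types of a gene entered 1 model with an interaction of type and group. A fit per transcript (27096 tested) was added after the data were seen. Other settings included limma 3.58.1, DESeq2 1.42.0, other scalings and filters, a replicate block and leaving out libraries.

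The genes and lists were chosen with earlier results of these data known. Values per library are given for members called in a ratio and, beyond that rule, for those whose levels were described in full. Of each list, at most the 3 called genes with the largest changes in a comparison are named. Likeness names the 5 genes with the highest Pearson correlation. Total counts were 2306870 to 7900178 per library, which gave Srsf6 shares a median 95% interval of 2.02 percentage points.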

Additional observations from a re-analysis of the deposited data

How the results depend on the processing

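The number of all genes called also changed with the setting. From 6 h to 24 h in negative cells, 0 of 2405 ratios were called in the report. Without both positive libraries at 6 h these were 136, and with a mean of at least 20 counts 24 of 940. Such numbers are not given for most settings, so member calls gained or lost here and in the next paragraph are not set against them. Every other value in this paragraph is the number of members called under another setting. For ratios from 6 h to 24 h in negative cells (0 in the report) it was 3 with only the compared groups or without both positive libraries at 6 h, 1 with a mean of at least 20 counts, and 0 to 3 with 1 library left out. In positive cells from 0 h to 6 h (1) it was 0 with the replicate block, only the compared groups or a mean of at least 1 count, 2 with all other transcripts as denominator, and 0 to 2 with 1 library left out. From 6 h to 24 h there (1) it was 0 with only the compared groups, 2 with all other transcripts, and 0 to 2 with 1 library left out. Between fractions at 6 h (0) it was 1 with a mean of at least 20 counts and 0 to 2 with 1 library left out. With all other transcripts as denominator the added gene was Clk1 (4.67, adjusted p = 0.0491, and -4.61, 0.0401). Its other counts were of Clk1-203 and Clk1-208, whose own bases lie in introns and which were nearly absent in positive cells at 6 h. These values of Clk1 therefore do not set introns against spliced RNA. For gene sums from 0 h to 6 h in negative cells (1) it was 2 with library totals alone, no filter or DESeq2, 3 without the positive libraries at 6 h or with only the compared groups, and 1 to 3 with 1 library left out. From 6 h to 24 h (1) it was 2 with upper-quartile factors, library totals, no filter or DESeq2, 3 without the positive libraries, 5 with only the compared groups, and 1 to 3 with 1 library left out. From 0 h to 24 h (0) it was 3 with only the compared groups. In positive cells it was 0 with only the compared groups in both comparisons (2 each), and 1 to 4 and 0 to 4 with 1 library left out. Between fractions at 0 h (0) it was 1 with upper-quartile factors, totals or only the compared groups, 2 without the positive libraries at 6 h, and 0 to 2 with 1 library left out. At 6 h (1) it was 2, 3 and 0 with upper-quartile factors, no filter and only the compared groups, and 0 to 4 with 1 library left out. At 24 h (0) it was 1 with totals. For the gap at 6 h against 0 h (0) it was 0 to 4 with 1 library left out.

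For retained-intron levels in negative cells from 0 h to 6 h (0) the number was 1 with either other scaling, without the positive libraries at 6 h or with no filter. From 0 h to 24 h (0) it was 1, and from 6 h to 24 h (1) 2, without these libraries, and the latter was 2 with totals. In positive cells it was 0 with the block or no filter from 0 h to 6 h (1), and 0 with the block or upper-quartile factors and 2 with no filter from 6 h to 24 h (1). Between fractions it was 1 with either scaling and 2 without the positive 6 h libraries at 0 h (0), and 0 with upper-quartile factors at 6 h (3). With 1 library left out, the counts of these ran from 0 to at most 6 (2, 1 and 2 in negative cells, 4 and 5 in positive cells, 2 and 6 between fractions, 4 for the changed gap at 6 h). For protein-coding levels it was 1 with either scaling from 0 h to 6 h (2) and with totals from 6 h to 24 h (3) in negative cells, 1 with the block or upper-quartile factors from 6 h to 24 h in positive cells (2), and 3 with upper-quartile factors or no filter between fractions at 6 h (0). With 1 library left out these ran from 1 to 3 within fractions, from 0 to 3 between fractions at 6 h, and from 0 to 1 at 0 h and for the changed gap at 6 h. For single transcripts it was 1 with totals and 2 without the positive 6 h libraries from 0 h to 6 h (0), 1 with upper-quartile factors and 2 without these libraries from 0 h to 24 h (0), 0 and 5 for the same from 6 h to 24 h (3), 1 with totals from 0 h to 6 h (0) and 1 with the block from 6 h to 24 h (2) in positive cells. With 1 library left out these ran from 0 to 5, 2, 6, 5 and 5, from 1 to 9 between fractions at 6 h (2), and from 0 to 6 for the changed gap.

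Called members kept their direction in all settings run. Ratios that were not called were less stable: 22 of 66 member ratios changed sign in some setting, among them Srsf3 from 0 h to 24 h (-7.92 to 0.82), Srsf7 (-0.62 to 6.61) and Srsf2 (-1.49 to 0.13) from 0 h to 6 h, and Srsf7 from 6 h to 24 h (-5.56 to 1.67), all in positive cells. Without positive replicate 1 at 6 h Srsf7 was at 6.61 from 0 h to 6 h, with 1 library left in that group. That library had 30 retained-intron and 0 protein-coding counts of Srsf7, so fitted values that rest on it are no bound. Srsf11 from 6 h to 24 h in negative cells, not called (0.49), was -0.17 without replicate 1 and 1.03 without replicate 2 of the negative cells at 6 h. Leaving out 1 library leaves a group with 1, whose spread is assumed to be like that of the others. With the replicate block the ratio of Srsf6 from 6 h to 24 h in positive cells was 3.92 (adjusted p = 0.0228). Libraries of the same number did not deviate together: over 15 pairs of groups the correlation was -0.040 to 0.030 for gene sums and -0.068 to 0.039 for ratios, with 0 over 0.1. Other scalings moved the median of all genes by -0.42 to 0.40 on the log2 scale. Over all genes, limma called 225 ratios where edgeR called 128 from 0 h to 6 h in positive cells, and 118 against 47 between fractions at 6 h. Apart from what is named, the cause of lost or gained calls was not tested.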
